A study of Mus musculus with 6 samples.

Results

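Pan-endothelial identity genes are genes whose transcripts mark vascular lining cells as a class, whatever vessel they line. They were taken here as a named set of 34 genes, listed by their known role, although earlier results of these data were known when they were chosen. Of the 34, 33 had a row among the 14298 genes of the deposited table. The remaining gene, Ramp3, had no row, so its level was not analysed, but it was part of the promoter search below. PolyA RNA of whole aortic arches from adult C57/BL6 mice was sequenced. The knockout group held 3 libraries from ApoE-/-; RBPJflox/flox mice that also carried Cdh5-CreERT, and the control group held 3 libraries from ApoE-/-;RBPJflox/flox mice without the recombinase. All animals of both groups therefore lacked apolipoprotein E, which makes mice prone to atherosclerosis, and carried floxed alleles of Rbpj. All received tamoxifen for 1 week at 8 weeks of age and a high-fat diet for the 6 weeks after it. Cdh5-CreERT is a recombinase that tamoxifen activates and that the promoter of the endothelial cadherin gene Cdh5 drives, so that deletion is aimed at endothelial cells while the RNA came from every cell type of the arch. The groups differed in the presence of the recombinase as well as in the deletion.

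Endothelial identity is held by a small circuit of transcription factors, mainly of the ETS family (Erg, Fli1, Ets1), the basic helix-loop-helix family (Tal1, Lyl1) and the SOX family (Sox7, Sox18), which bind the regulatory regions of junction, receptor and adhesion genes. RBPJ is the DNA-binding partner of the Notch receptors, a pathway used by endothelial cells to choose arterial fate and to restrain sprouting. Vessels also differ by bed: large arteries have a continuous lining rich in von Willebrand factor, whereas the capillary genes Plvap, Gpihbp1 and Emcn serve exchange across small vessels.

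Promoter windows of RefSeq genes, from 250 bases before to 50 bases after the annotated start in build GRCm38.p6, were found for 18 of the 34 genes (24 windows) and were searched on both strands for 5 motifs. The ETS motif CAGGAAG was in 10 of the 24 windows (41.7%), belonging to 9 genes, against 13.3% of all 32851 windows in the table. The RBPJ motif GTGGGAA was in 0 of the 24 windows, against 6.38% of all windows. The longer ETS motif ACCGGAAG, the SOX motif AACAATG and the TATA box TATAAA were each in 1 window (4.17%), against 2.3%, 3.78% and 13.6% of all windows. The window with the longer ETS motif was that of Ramp3, the gene without a measured level. The 2 ETS motifs share the letters GGAAG. Motif matches describe the letters of these windows and are not evidence of binding, and the 9 genes with the shorter ETS motif were Adgrf5, Cd34, Cyyr1, Egfl7, Emcn, Erg, Rasip1, Robo4 and Ushbp1. The windows below are those of Lyl1, whose groups did not overlap, and Emcn, a capillary gene, with Robo4 and 1 window of Egfl7 added after the search because they hold the shorter ETS motif. Capitals mark matches to the 5 motifs, on either strand, and Lyl1 has none.
Lyl1, chr8:84701207-84701506, + strand: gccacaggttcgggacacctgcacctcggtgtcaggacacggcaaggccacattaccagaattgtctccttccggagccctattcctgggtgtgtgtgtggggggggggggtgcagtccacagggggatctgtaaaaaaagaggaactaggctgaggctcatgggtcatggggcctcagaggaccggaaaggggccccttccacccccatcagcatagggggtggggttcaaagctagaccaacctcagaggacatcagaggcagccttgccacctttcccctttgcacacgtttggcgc
Emcn, chr3:137340828-137341127, + strand: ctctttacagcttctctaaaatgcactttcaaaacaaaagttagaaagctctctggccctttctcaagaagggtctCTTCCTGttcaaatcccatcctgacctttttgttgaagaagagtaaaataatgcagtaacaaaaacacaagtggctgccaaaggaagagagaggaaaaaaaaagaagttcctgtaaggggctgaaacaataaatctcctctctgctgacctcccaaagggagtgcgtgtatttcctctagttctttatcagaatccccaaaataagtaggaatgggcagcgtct
Robo4, chr9:37401722-37402021, + strand: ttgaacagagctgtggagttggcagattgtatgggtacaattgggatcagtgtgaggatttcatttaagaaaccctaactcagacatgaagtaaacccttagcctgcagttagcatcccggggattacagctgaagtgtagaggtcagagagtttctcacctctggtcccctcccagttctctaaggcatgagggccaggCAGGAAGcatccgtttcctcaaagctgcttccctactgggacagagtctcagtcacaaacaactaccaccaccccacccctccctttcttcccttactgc
Egfl7, chr2:26580833-26581132, + strand: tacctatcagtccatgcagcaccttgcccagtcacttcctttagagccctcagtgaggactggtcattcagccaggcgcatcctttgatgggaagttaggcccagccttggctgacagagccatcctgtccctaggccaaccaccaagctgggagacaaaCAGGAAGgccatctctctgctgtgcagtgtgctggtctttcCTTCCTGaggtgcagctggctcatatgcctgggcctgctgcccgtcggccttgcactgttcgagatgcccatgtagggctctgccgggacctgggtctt

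Between 5904504 and 10072495 reads per library lay over the 14298 genes, and no 2 libraries of a group were duplicates (chi-square per degree of freedom 12.5 to 34.1). Rbpj stood at 169, 197 and 212 CPM, the deposited read level scaled to library size, in the knockout libraries S595, S598 and S599, against 174, 191 and 200 in the control libraries S591, S592 and S594. These ranges overlap, and a gene-level value over the whole arch does not check a deletion aimed at endothelial cells. Thymocyte transcripts were present in S598 and S599 (the polymerase gene Dntt at 23.5 and 7.16 CPM, against 1.29 in S595 and 0.872 to 1.69 in the controls). The 12 T cell and thymocyte markers summed to 30.6 to 217 CPM in the knockout and 35.8 to 45.1 CPM in the control libraries. The 5 airway markers with a row summed to 78.6 to 108 CPM in the knockout and 12.7 to 15.7 CPM in the control libraries. Of 12 macrophage markers, 10 had an unadjusted p under 0.05 with lower values in the knockout arches, and their summed level ran from 2187 to 5202 CPM in the knockout and from 5011 to 8389 CPM in the control libraries. The part of these cell types in the values below was not tested.

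Taken as a set, the endothelial identity genes had a median fold change close to level between the groups. Over the 33 genes the median log2 fold change, knockout minus control, was −0.13, beside −0.02 over all 14298 genes. On the lower side were 21 of the 33 (63.6%), against 52.2% of all genes. By limma, 0 of the 33 passed a Benjamini-Hochberg adjusted p of 0.05 in either direction, where 0.0210% of all genes passed (3 genes, all higher, and 0% lower). At an unadjusted p under 0.05, 3 of the 33 lay lower (9.09%, beside 12.0% of all genes) and 0 lay higher (beside 8.04%). Those 3 were Plvap, Lyl1 and S1pr1. Of the 33, the edgeR quasi-likelihood test called 0, with 3 lower by its unadjusted p, and limma-voom called 0, with 4 lower. DESeq2 called 1 (Plvap), where it called 900 of all genes. All values of the knockout libraries lay below all control values for 2 genes, Plvap and Lyl1 (6.06%, beside 14.2% of all genes), and above them for 0 (beside 11.3%). The shares of called and of non-overlapping genes are at or under the background of the arch as a whole, while the share on the lower side is above it. Spread among the knockout libraries limits such calls. The median SD of log2 values in the knockout group was 0.367 for the 33 genes and 0.178 for all genes. In the control group these medians were 0.204 and 0.187. For 25 of the 33 genes (75.8%, beside 79.4% of all genes) the 95% interval of the fold change lay inside a 2-fold change either way. In whole-tissue RNA, fewer endothelial cells and less RNA per cell cannot be told apart.

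**Figure D1:**
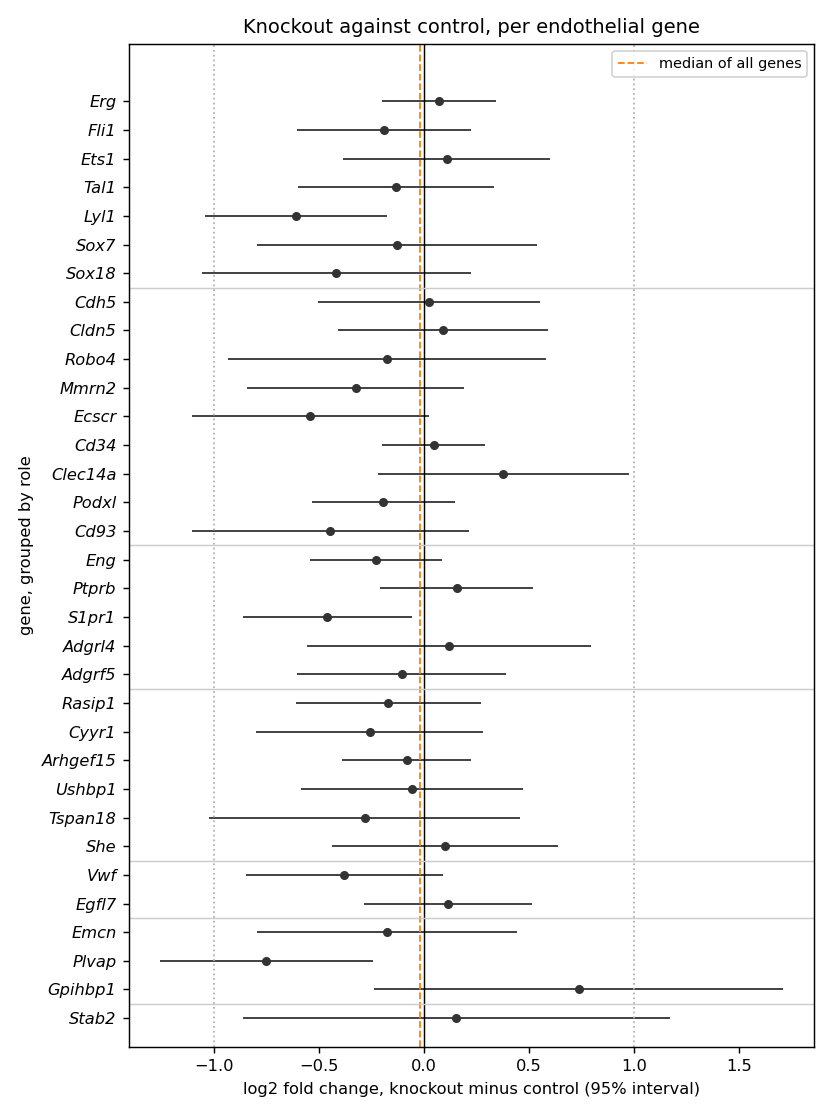
Log2 fold change (knockout minus control, log2(CPM + 1) scale) of each of the 33 endothelial genes, with its 95% interval from limma, grouped by role from top to bottom. The dashed line is the median of all genes (−0.02) and the dotted lines mark a 2-fold change. Plvap, Lyl1 and S1pr1 are the genes whose interval excludes 0.

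Among the transcription factors, Erg (ENSMUSG00000040732), the ETS factor that maintains endothelial identity in adult vessels, was the gene with the narrowest range among the knockout libraries (1.08-fold). It stood at 69.5, 68.6 and 73.8 CPM in the knockout libraries S595, S598 and S599, against 64.9, 77.7 and 60.0 CPM in the control libraries S591, S592 and S594. The knockout values lay within the control range, with a log2 fold change of 0.07 (standard error 0.12) and a 95% interval from 0.87-fold to 1.27-fold. Ets1, an ETS factor also expressed in T cells, stood at 44.8, 78.3 and 60.6 CPM in the knockout and 49.0, 51.6 and 67.1 CPM in the control libraries. Its highest value was in S598, the library with the most thymocyte transcripts, and it was the 1 gene of the 33 whose highest knockout library was not S599. Fli1, an ETS factor shared with blood cells, averaged 20.0 ± 4.02 CPM in knockout and 22.9 ± 3.43 CPM in control arches (SD, n = 3 each), while Tal1, a factor of blood and endothelial origin, stood at 7.38, 8.63 and 11.9 CPM in the knockout and 9.33, 11.5 and 9.60 CPM in the control libraries. Neither pair of groups separated.

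Lyl1 (ENSMUSG00000034041), the relative of Tal1 that acts in blood and endothelial cells, was the 1 factor of the 7 with an unadjusted p under 0.05. It stood at 6.47, 6.03 and 7.16 CPM in the knockout libraries S595, S598 and S599, against 8.80, 9.99 and 13.1 CPM in the control libraries S591, S592 and S594. All 3 knockout values were below all 3 control values. Its log2 fold change was −0.61 (standard error 0.19, limma adjusted p = 0.148, unadjusted p = 0.0122), and the exact two-sided permutation p was 0.1, as small as 3 libraries a group permit. It was read 42 to 105 times per library. Of 12 macrophage markers, 10 had a negative log2 fold change and 2 a positive one. Of the 10, the leukocyte integrin gene Itgam averaged 49.8 ± 5.06 CPM in knockout and 159 ± 63.2 CPM in control arches (SD, n = 3 each). The part of macrophage RNA in the Lyl1 level was not tested. The SOX factors Sox7 and Sox18, which act upstream of arterial and lymphatic programmes, spread widely in the knockout group. Sox18 stood at 8.14, 9.30 and 17.7 CPM in the knockout libraries, against 12.9, 16.6 and 16.2 CPM in the controls. Sox7 stood at 8.75, 9.59 and 19.0 CPM in the knockout and 11.3, 12.0 and 15.8 CPM in the control libraries. For both, S595 and S598 were each below every control and S599 was above every control, so the groups overlapped.

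Among the 9 junction and surface genes the median log2 fold change was −0.18 and 0 had an unadjusted p under 0.05. Cdh5 (ENSMUSG00000031871), the cadherin of endothelial junctions and the source of the promoter before the recombinase, was at 109, 111 and 198 CPM in the knockout libraries S595, S598 and S599, against 123, 126 and 146 CPM in the control libraries. Its group means were close, with a log2 fold change of 0.02 and a 95% interval from 0.705-fold to 1.47-fold. Cldn5, the claudin of endothelial tight junctions, averaged 21.2 ± 4.70 CPM in knockout and 19.9 ± 4.89 CPM in control arches (SD, n = 3 each). Cd34, a sialomucin that fibroblasts and progenitor cells also carry, was also narrow in range. It stood at 229, 210 and 248 CPM in the knockout and 236, 210 and 217 CPM in the control libraries. Its log2 fold change was 0.05, with a 95% interval from 0.872-fold to 1.22-fold.

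Clec14a, a lectin-domain receptor of endothelial cells that binds Mmrn2, stood at 25.9, 30.2 and 55.4 CPM in the knockout libraries S595, S598 and S599, against 26.2, 28.1 and 26.3 CPM in the controls. The control libraries agreed within 1.07-fold while the knockout libraries spanned 2.14-fold, with S599 alone far above the rest. The log2 fold change of 0.38 was 0.06 without S599. Cd93, a lectin-domain receptor of endothelial and myeloid cells that also binds Mmrn2, stood at 130, 124 and 232 CPM in the knockout and 153, 233 and 265 CPM in the control libraries. Mmrn2, the matrix ligand of both, stood at 52.1, 43.5 and 83.3 CPM in the knockout and 65.7, 76.5 and 74.8 CPM in the control libraries. The log2 fold changes of the 2 receptors had opposite signs (0.38 for Clec14a and −0.45 for Cd93), each with an interval that spanned 0. Ecscr, a surface protein of endothelial migration, averaged 14.4 ± 4.92 CPM in knockout and 20.9 ± 3.98 CPM in control arches (SD, n = 3 each), with a log2 fold change of −0.54 (limma adjusted p = 0.269). The guidance receptor Robo4 averaged 9.91 ± 3.88 CPM in knockout and 11.4 ± 4.85 CPM in control arches, and the sialomucin Podxl 67.4 ± 12.1 and 76.6 ± 8.44 CPM. In both genes the groups overlapped.

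Of the receptors and the receptor phosphatase, S1pr1 had the smallest p. S1pr1 (ENSMUSG00000045092) is the receptor for sphingosine 1-phosphate that tightens endothelial junctions and also guides lymphocyte exit from tissue. It stood at 36.1, 41.4 and 55.6 CPM in the knockout libraries S595, S598 and S599, against 52.7, 67.5 and 61.9 CPM in the controls. S599 overlapped the lowest control. The log2 fold change was −0.46 (standard error 0.17, limma adjusted p = 0.204, unadjusted p = 0.0305). Eng, the endoglin co-receptor for the BMP and TGF-beta family, averaged 113 ± 14.0 CPM in knockout and 133 ± 16.8 CPM in control arches (SD, n = 3 each), and the phosphatase gene Ptprb, which restrains the angiopoietin receptor, 172 ± 38.5 and 152 ± 8.86 CPM. The adhesion receptor Adgrl4 stood at 10.9, 14.0 and 25.6 CPM in the knockout and 15.9, 12.1 and 15.7 CPM in the control libraries, again with S599 above the others. Adgrf5, an adhesion receptor of endothelium and lung epithelium, averaged 65.9 ± 20.1 CPM in knockout and 69.6 ± 10.8 CPM in control arches.

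The intracellular regulators had log2 fold changes from −0.28 for Tspan18 to 0.10 for She, with a median of −0.13. Rasip1, the small-GTPase effector needed for vessel lumens, averaged 15.4 ± 3.01 CPM in knockout and 17.4 ± 3.17 CPM in control arches (SD, n = 3 each). Arhgef15 averaged 25.9 ± 3.10 and 27.4 ± 2.30 CPM. The adaptor gene She averaged 18.2 ± 6.71 and 16.2 ± 0.668 CPM, with its knockout spread again set by S599 at 25.9 CPM. Cyyr1 averaged 12.3 ± 3.63 CPM in knockout and 14.7 ± 3.20 CPM in control arches. The tetraspanin gene Tspan18 and Ushbp1 varied more among the controls than between the groups. Tspan18 stood at 24.9, 18.9 and 32.2 CPM in the knockout and 43.3, 18.3 and 35.0 CPM in the control libraries, and Ushbp1 at 11.6, 11.7 and 14.5 CPM and 17.9, 9.59 and 13.1 CPM. For both, control S591 was the highest and control S592 the lowest of all 6 libraries, as was so for 5 of the 8 adipocyte markers, the perilipin gene Plin1 among them, and not for Lep, Retn or Ucp1. Plin1 stood at 85.0, 55.6 and 60.5 CPM in the knockout and 151, 28.9 and 62.6 CPM in the control libraries. The 8 adipocyte markers stood at 0.33, −0.22 and 0.05 log2 units about their mean in the knockout libraries S595, S598 and S599, and at 0.99, −1.05 and −0.11 in the control libraries, and summed to 432 to 744 CPM in the knockout and 328 to 1591 CPM in the control group. The part of adipose tissue in these values was not tested.

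**Figure D2:**
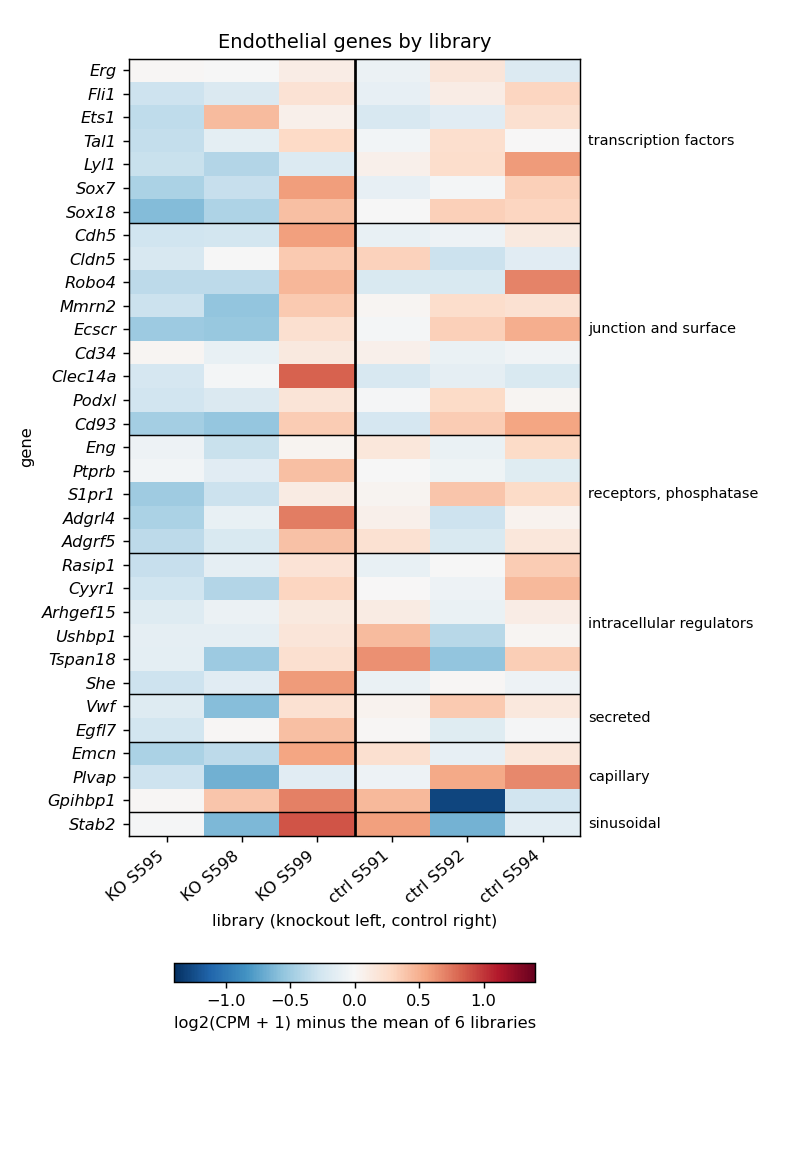
Each row is an endothelial gene and each column a library (knockout left of the black line, control right), coloured by log2(CPM + 1) minus the gene's mean over the 6 libraries. The column of knockout S599 is above the other knockout columns in 32 of 33 rows, and knockout S595 is below all controls in 24.

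Large-vessel and capillary genes were then described gene by gene. Vwf (ENSMUSG00000001930), the clotting glycoprotein stored by the endothelium of large vessels and by platelets, stood at 252, 189 and 330 CPM in the knockout libraries S595, S598 and S599, against 295, 370 and 317 CPM in the control libraries. The groups overlapped (log2 fold change −0.38, standard error 0.20, limma adjusted p = 0.345). Of the 8 platelet markers, 4 had a row. The chemokine gene Pf4 averaged 12.2 ± 0.972 CPM in knockout and 18.9 ± 4.08 CPM in control arches (SD, n = 3 each), and the integrin gene Itga2b 3.79 ± 0.428 and 5.99 ± 0.562 CPM. The platelet glycoprotein genes Gp1ba and Gp1bb had log2 fold changes of 0.0054 and 0.29. The sums of the 4 genes, to which Pf4 gave most, ran from 19.6 to 21.6 CPM in the knockout and from 25.1 to 33.4 CPM in the control libraries. Egfl7, a secreted endothelial factor, averaged 60.8 ± 15.0 CPM in knockout and 55.0 ± 3.89 CPM in control arches.

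The 3 capillary genes differed in sign, and none passed the adjusted threshold. Plvap (ENSMUSG00000034845), the protein of the diaphragms that span endothelial fenestrae and caveolae, stood at 52.0, 39.4 and 56.9 CPM in the knockout libraries S595, S598 and S599, against 60.3, 92.2 and 102 CPM in the control libraries S591, S592 and S594. The groups did not overlap, although S599 and control S591 lay close together. Its log2 fold change was −0.75 (standard error 0.22, limma adjusted p = 0.136, unadjusted p = 0.00941), with an interval from 0.419-fold to 0.845-fold and an exact two-sided permutation p of 0.1, the smallest possible. Plvap passed the adjusted threshold without control S591 (log2 fold change −0.97, limma adjusted p = 0.0346), a fit that called 671 of all genes. It also passed by DESeq2 (−0.77, adjusted p = 0.0333), which called 900 of all genes. Without knockout S598 its limma adjusted p was 0.419.

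Gpihbp1 (ENSMUSG00000022579), which carries lipoprotein lipase to the capillary lumen in fat, heart and muscle, had a positive log2 fold change. It stood at 7.53, 10.1 and 12.8 CPM in the knockout libraries, against 10.6, 2.48 and 6.01 CPM in the controls. The value of control S592 rested on 18 reads, and that library was also the lowest in Plin1. The log2 fold change was 0.74 (standard error 0.42, limma adjusted p = 0.369), 0.28 without control S592 and 1.15 without control S591 (limma adjusted p = 0.104, unadjusted p = 0.0129). Emcn (ENSMUSG00000054690), a sialomucin of capillary and venous endothelium, stood at 16.8, 17.8 and 34.5 CPM in the knockout and 27.3, 21.4 and 26.1 CPM in the control libraries, so that the control values lay inside the knockout range (log2 fold change −0.18). With log2 fold changes from −0.75 to 0.74, the 3 capillary genes are not described by a single median, and no contrast of the class with the large-vessel genes is drawn. Stab2, a scavenger receptor of sinusoidal endothelium, averaged 8.11 ± 4.82 CPM in knockout and 6.95 ± 3.47 CPM in control arches (SD, n = 3 each), with 29 to 85 reads per library.

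**Figure D3:**
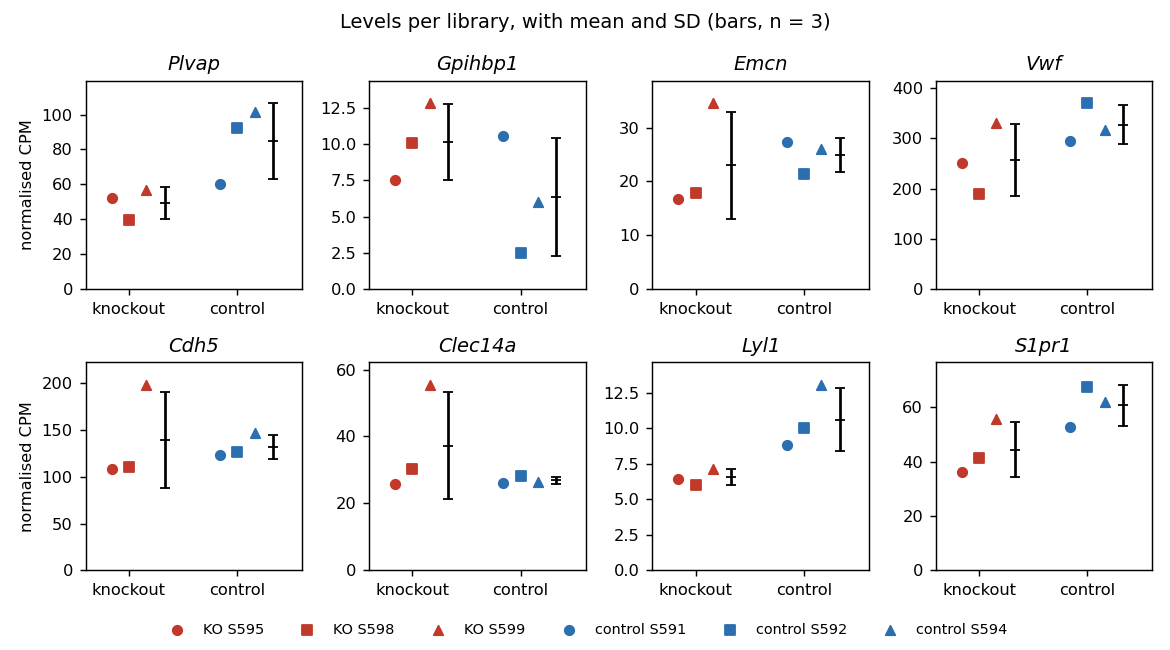
Normalised CPM of 8 endothelial genes in each library, with knockout points (red) left of control points (blue) and black bars for the mean and SD of 3 libraries. Plvap and Lyl1 are the panels in which the groups do not overlap, and knockout S599 (red triangle) is the highest knockout library in every panel.

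Relative to Cdh5 in the same library, Plvap was again lower in the knockout arches. The ratio of Plvap to Cdh5 was 0.478, 0.355 and 0.287 in the knockout libraries S595, S598 and S599, against 0.490, 0.731 and 0.695 in the controls. Lyl1 stood at 0.0595, 0.0544 and 0.0361 of Cdh5 in the knockout and 0.0715, 0.0792 and 0.0893 in the control libraries, and S1pr1 at 0.332, 0.374 and 0.280, against 0.428, 0.535 and 0.423. The ratios of these 3 genes, and of Ecscr (0.107, 0.103 and 0.101, against 0.135, 0.172 and 0.167), were lower in every knockout library than in any control. The ratio of Clec14a lay the other way, at 0.239, 0.273 and 0.280 in the knockout and 0.213, 0.223 and 0.180 in the control libraries. Of the 9 genes set against Cdh5, the other 4 (Emcn, Gpihbp1, Vwf and Erg) overlapped. The ratio of Erg to Cdh5 was 0.639, 0.619 and 0.372 in the knockout and 0.528, 0.616 and 0.410 in the control libraries, with overlap. These ratios are descriptions, several of them of genes already singled out by their values, and Cdh5 itself was highest in S599. The remaining genes of the set were not divided by Cdh5, and the share of all genes whose ratio to Cdh5 separates the groups was not computed. Separation of the ratios is therefore not shown to be particular to the genes named here. In level, without division by Cdh5, the groups overlapped for S1pr1, Ecscr and Clec14a.

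Within the knockout group, 1 library stood above the others. S599 was the highest of the 3 knockout libraries in 32 of the 33 genes (97.0%), beside 35.7% of all genes, and the highest of all 6 libraries in 17 (51.5%), beside 15.1%. S595 was below all 3 controls in 24 genes and above them in 0, where over all genes these shares were 30.7% and 26.6%. S598 was below all controls in 20 and above them in 2, beside 34.9% and 30.7% of all genes. S599 by contrast was above all controls in 17 and below them in 2, beside 28.8% and 31.5%. The mean of the 33 genes about their 6-library mean was −0.27, −0.24 and 0.33 log2 units in S595, S598 and S599, against 0.06, −0.04 and 0.17 in S591, S592 and S594. The highest knockout library exceeded the lowest by a median of 1.70-fold over the 33 genes, against 1.31-fold among the controls, where the medians over all genes were 1.29-fold and 1.31-fold.

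Other lists moved with these libraries in different ways. S599 was also the highest knockout library for 12 of 12 macrophage markers, and for 0 of 10 smooth muscle markers. Smooth muscle markers stood at 0.50, 0.51 and −0.04 log2 units about their mean in S595, S598 and S599, and at 0.03, −0.20 and −0.80 in the control libraries, with sums from 21936 to 30235 CPM in the knockout and from 12472 to 21771 CPM in the control group. The part of smooth muscle RNA in the endothelial values was not tested. Without S599 the median log2 fold change of the 33 genes was −0.31 in place of −0.13, and 10 genes in place of 3 had an unadjusted p under 0.05 with lower values (Vwf, Lyl1, Sox18, Emcn, Mmrn2, Ecscr, Plvap, S1pr1, Podxl and Cd93), beside 11.3% of all genes in that fit, with 0 past the adjusted threshold by limma. Without S595 the median was −0.01, and without S598 it was −0.06. Set alone against the controls, whose spread it then shares by assumption, S595 gave −0.37.

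**Figure D4:**
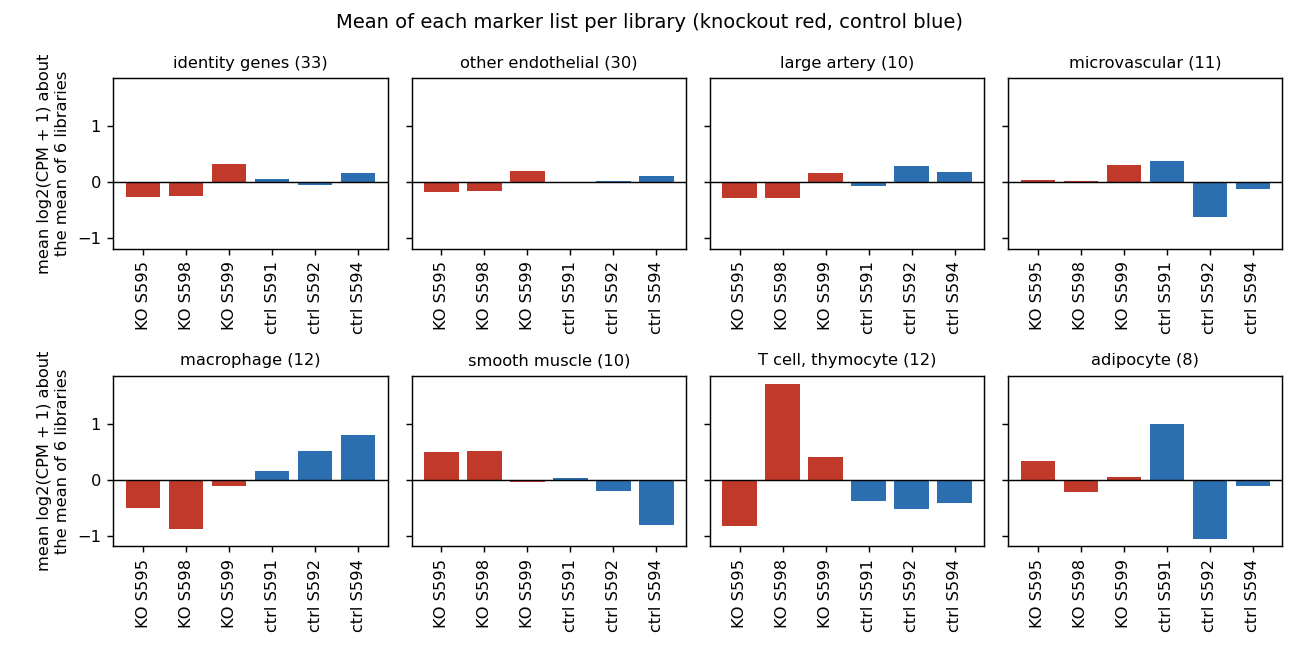
Mean log2(CPM + 1) of each marker list in each library, about its mean over 6 libraries, with knockout libraries in red left of control libraries in blue. The endothelial genes are low in S595 and S598 (−0.27 and −0.24) and high in S599 (0.33), while smooth muscle markers are high in S595 and S598 and macrophage markers are lower in all 3 knockout libraries.

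Endothelial genes outside the set shared the high library, S599 being the highest knockout library in 23 of 30. Of these 30 further endothelial genes, 5 lay lower (16.7%, beside 12.0% of all genes) and 1 lay higher (3.33%, beside 8.04%) by unadjusted p under 0.05, with 0 past the adjusted threshold and a median log2 fold change of −0.03. The smallest p was that of Icam1, the adhesion molecule that binds leukocytes, which stood at 50.3, 39.5 and 51.5 CPM in the knockout libraries S595, S598 and S599, against 88.6, 77.6 and 105.7 CPM in the controls, without overlap (log2 fold change −0.93, limma adjusted p = 0.107). Nos3, the endothelial nitric oxide synthase, stood at 31.9, 21.5 and 22.7 CPM in the knockout libraries S595, S598 and S599, against 46.6, 45.0 and 47.4 CPM in the controls. For Nos3, S599 did not stand above the other knockout libraries, and the groups were far apart (log2 fold change −0.86, limma adjusted p = 0.107). Ece1, which processes endothelin, averaged 218 ± 29.1 CPM in knockout and 331 ± 30.4 CPM in control arches (SD, n = 3 each), and Ldb2, a LIM-domain binding cofactor, 43.8 ± 7.68 and 26.5 ± 4.11 CPM, with limma adjusted p of 0.111 and 0.121. By contrast the general endothelial adhesion gene Pecam1 stood at 282, 302 and 435 CPM in the knockout and 341, 347 and 306 CPM in the control libraries, as Cdh5 did, with a log2 fold change of 0.01.

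Lists of vessel type were described in the same way, and 0 of their genes passed the adjusted threshold by limma. Sox17 (large-artery) and Kdr (microvascular) are also among the further endothelial genes above. Of 10 large-artery endothelial genes, 2 lay lower (20.0%, beside 12.0% of all genes) by unadjusted p under 0.05, Sema3g and Unc5b. In this list 0 lay higher (beside 8.04%), and the median was −0.27. Sema3g, a semaphorin of arterial endothelium, stood at 8.90, 6.22 and 11.1 CPM in the knockout libraries, against 13.4, 18.8 and 18.8 CPM in the controls, without overlap (log2 fold change −0.90, limma adjusted p = 0.121). Of 12 microvascular genes 11 had a row, with a median of 0.18. Among them 0 lay lower (beside 12.0% of all genes) and 1 higher (9.09%, beside 8.04%), Aplnr, the apelin receptor. Aplnr stood at 8.75, 18.0 and 30.0 CPM in the knockout and 8.08, 1.81 and 9.72 CPM in the control libraries, with overlap between S595 and the controls. Several microvascular genes are also expressed by adipocytes or macrophages, Cd36 and Fabp4 among them. Lymphatic markers were present in part (5 of 7 with a row, not Prox1 or Ccl21a), with 2 lower at an unadjusted p under 0.05 (40%, beside 12.0% of all genes). The mucin gene Pdpn averaged 18.9 ± 3.24 CPM in knockout and 67.5 ± 29.0 CPM in control arches (SD, n = 3 each). Its log2 fold change was −1.69 (limma adjusted p = 0.107). Reln averaged 0.998 ± 0.396 and 3.77 ± 2.51 CPM, on 7, 13 and 3 reads in knockout S595, S598 and S599. Pdpn stood at 35.8, 74.2 and 92.6 CPM in controls S591, S592 and S594. Of the controls, S591 was thus the lowest in Pdpn, but it was the highest in every other lymphatic marker with a row. The part of other cell types in Pdpn was not tested.

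Each library was also rescaled by its mean over Pecam1, Tie1, Tek, Esam and Icam2, general endothelial genes outside the set. This takes the same offset from every gene of a library. The log2 fold changes therefore all shifted up by a constant, and the order of the 33 genes could not change. Plvap then had a log2 fold change of −0.69 (limma adjusted p = 0.187), Lyl1 of −0.54 (0.473), S1pr1 of −0.39 (0.552) and Gpihbp1 of 0.80 (0.328). At an unadjusted p under 0.05, Plvap was the 1 gene that was lower (beside 6.52% of all genes in that fit) and Gpihbp1 the 1 gene that was higher (beside 5.18%). The median over the 33 genes was −0.07.

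**Figure D5:**
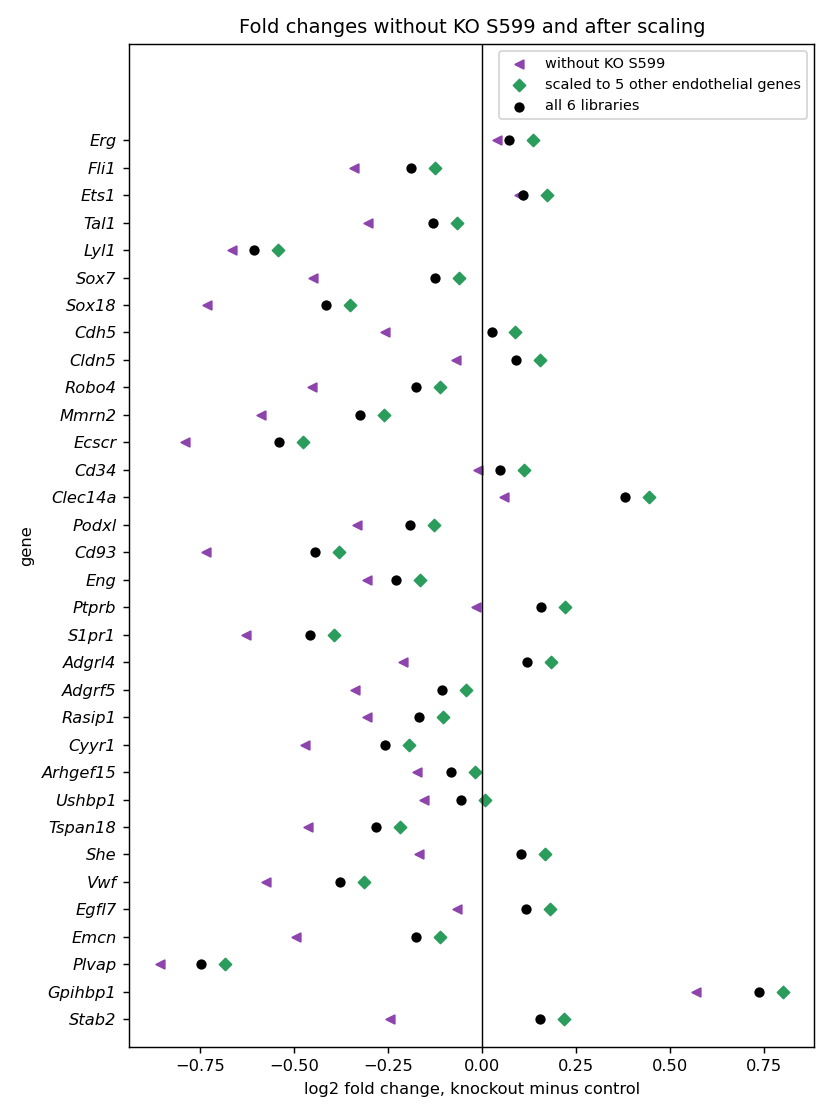
Log2 fold change (knockout minus control) of each gene from all 6 libraries (black circles), without knockout S599 (purple triangles) and after scaling each library to 5 other endothelial genes (green diamonds). Leaving out S599 moves the median from −0.13 with all libraries to −0.31, while Plvap is lowest and Gpihbp1 highest in all 3 sets of values. For the scaled values this order is fixed by the scaling and is not a separate check.

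Per length of exon in GENCODE M21, Cdh5 was the most abundant gene of the set in the knockout arches at 33.1 ± 12.2 CPM per kilobase, against 31.4 ± 3.01 in the controls (SD, n = 3 each). Plvap stood at 24.9 ± 4.54 CPM per kilobase in the knockout arches, where it ranked 4, against 42.7 ± 10.9 in the controls, where it ranked 1. Cd34, Eng and Cd93 lay beside them in both groups, with levels of 31.4 ± 2.62, 28.0 ± 3.46 and 24.3 ± 9.09 in the knockout arches and 30.3 ± 1.86, 32.9 ± 4.14 and 32.5 ± 8.64 in the controls. Among these 5 genes, those next to each other in order of level overlapped in mean ± SD within each group. At the other end, Stab2 stood at 0.926 ± 0.550 and 0.793 ± 0.396 CPM per kilobase and Cyyr1 at 1.38 ± 0.408 and 1.66 ± 0.360. The exon lengths come from another annotation than the one behind the deposited values, which is not given in the sources used here, so these levels are approximate.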

How the data were processed

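PolyA RNA was sequenced after TruSeq library preparation from RNA with an integrity score of at least 7.9, per the labels' protocols. Build NCBIM37 and the tools Bowtie 0.12.7, RSEM 1.16, cutadapt 1.6.1, CASAVA 1.8, edgeR and limma appear, with no role given, in the submitters' processing notes. No annotation or strand setting is stated there. The authors deposited a normalised signal per gene that equals the CPM of (reads + 0.5) for a TMM-scaled library. Whole reads were recovered from 100% of them at a tolerance of 0.01. Every gene listed reached at least 1.05 CPM in 3 libraries. Columns are named by genotype and a number from S591 to S599, not by sample. The series design counts 3 mice per genotype, and no label ties a column to a mouse.

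Symbols were matched by Ensembl identifier to GENCODE M21 names for 13828 of 14298 genes. The test was limma 3.58.1 (R 4.3.3) with genotype as the factor and a variance trend, applied to log2(value + 1), with two-sided p-values adjusted by Benjamini and Hochberg over all 14298 genes. Fold changes on this scale understate changes of low genes. Alternatives were other pseudocounts, a filter, scalings, variance models, edgeR 4.0.16, limma-voom and DESeq2 1.42.0 on recovered reads, and libraries left out. All members are accounted for. The genes with a row named from other lists are, with the exceptions below, among the 4 (endothelial, large-artery and microvascular lists) or 2 with the smallest p. Pecam1, Plin1, Fabp4, Retn, Gp1ba and Gp1bb were named after their values were seen. Sox17 and Kdr were named because they are also in the further endothelial list, and Tie1, Tek, Esam and Icam2 because they served for rescaling. The members and lists were chosen with earlier results of these data known.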

Additional observations from a re-analysis of the deposited data

How the results depend on the processing

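No paired analysis was possible because the columns carry no replicate number of the sample titles. Against 3 genes called over the whole table, 0 were called with a pseudocount of 0.5 or 0.1, a filter of 5 CPM in 3 libraries, limma-voom, edgeR, or S595 as the 1 knockout library, 1 without an intensity trend, 291 after endothelial scaling and 900 by DESeq2; single libraries left out gave 0 to 671 (6 without S595, 671 without control S591). Of the 33 genes, 1 (Plvap) was called lower by DESeq2 and 0 to 1 with a library left out (1 without control S591). At an unadjusted p under 0.05, 1 was lower and 1 higher after endothelial scaling, and 2 to 10 were lower (10 without S599) and 0 to 1 higher with a library left out. Signs turned for Ushbp1 (0.0027 after quantile normalisation, 0.0075 after endothelial scaling) and, with S595 as the 1 knockout library, for Cdh5 (−0.27), Ets1 (−0.30), Cldn5 (−0.18), Egfl7 (−0.20), Clec14a (−0.048), Adgrl4 (−0.38) and She (−0.23). With single libraries left out, log2 fold changes that turned sign ran from −0.34 to 0.048 for Adgrf5, −0.21 to 0.37 for Adgrl4, −0.013 to 0.11 for Cd34, −0.26 to 0.17 for Cdh5, −0.071 to 0.27 for Cldn5, −0.067 to 0.27 for Egfl7, −0.49 to 0.0029 for Emcn, −0.0090 to 0.17 for Erg, −0.084 to 0.31 for Ets1, −0.018 to 0.27 for Ptprb, −0.45 to 0.12 for Robo4, −0.17 to 0.27 for She, −0.45 to 0.065 for Sox7, −0.25 to 0.51 for Stab2, −0.30 to 0.0054 for Tal1 and −0.26 to 0.15 for Ushbp1. Inside these ranges, Sox7 stood at 0.0055 without S598 and 0.010 without control S594, Cdh5 at −0.023 without control S591 and −0.0051 without control S592, and, without control S592, Cldn5 at −0.036 and Stab2 at −0.14. The cause was not tested. The remaining 353 values under other settings and 175 with a library left out kept direction and side of the threshold. With 3 libraries a group, 18 to 104 reads of Gpihbp1 and 29 to 85 of Stab2 limit what can be detected for these genes.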
